A study of Mus musculus and Homo sapiens
Mus musculus with 12 samples.

Results

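Nuclear hormone receptors are transcription factors, many of which are switched by small fat-soluble ligands such as retinoic acid, thyroid hormone, steroids, fatty acids, oxysterols and bile acids. Most bind DNA as homodimers, or as heterodimers with a retinoid X receptor, at copies of a short motif, and recruit corepressors or coactivators. In the brain, glucocorticoid and mineralocorticoid receptors carry the response to stress hormones, thyroid and retinoid receptors act on neuronal maturation, and ROR and REV-ERB receptors link the circadian clock to transcription.

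The 44 receptor genes described here were taken by symbol from the 34496 genes with a row in at least 1 of 7 mouse brain count tables, with Nr4a1 and Nr4a3 left out as immediate early genes. The libraries were made by snHH-seq, single-nucleus total RNA sequencing with random reverse transcription primers and droplet barcoding. Brain tissue of young adult male wild-type C57BL/6J mice was ground in liquid nitrogen and the nuclei were fixed with paraformaldehyde. No transgene or treatment distinguished the groups, which differed by storage (frozen or fresh tissue) and by primer (Index, a reverse transcription primer that carries a first cell barcode, or No_index, a primer without it). The titles give 2 libraries each of No_index_frozen, Index_frozen and No_index_fresh, and 1 of Index_fresh. Nothing in the labels says that libraries came from separate animals, so the spread between them may be technical.

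For 4 of the 7 libraries (both Index_frozen and both No_index_fresh) the treatment label named the other primer, and the titles were used, since the 3 libraries titled Index had barcodes of 40 bases and the 4 titled No_index had barcodes of 30 bases. Libraries held 700 to 3100 nuclei (11198 in all), 8605214 to 42439731 UFIs (unique fragment identifiers, each counting 1 cDNA fragment) and a median of 9012 to 27543 UFIs per nucleus. Any 2 libraries shared 0 to 10 nucleus barcodes. Nuclei rich in kidney transcripts made up 11.7% and 10.7% of the Index_frozen libraries (268 and 213 nuclei), and no nucleus of another library fell in their clusters. Taken instead by at least 10 kidney marker UFIs, 0 to 3 nuclei of each other library would count. In addition, 20 nuclei rich in liver transcripts were found in Index_fresh alone. Both sets were kept apart, which left 10697 brain nuclei, 9884 of them neuron-like. Levels are given as CPM, a gene's UFIs scaled to 1e6 UFIs of the nuclei summed. The 6 neuron markers summed to 9495 CPM in the brain nuclei of Index_frozen and to 162 CPM in the kidney-rich nuclei, with 2162 CPM in 1 of their 9 kinds and 20.6 to 119 CPM in the 8 others. These nuclei were clustered without the receptor genes into 29 kinds, named "-like" from marker lists or by their leading genes. The names were rebuilt here and are not the authors' annotation, and no doublet caller was run.

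The receptors together took 955472 UFIs, between 0.498% and 0.572% of the UFIs of a library, and Rora alone took 41.2% to 51.9% of those. UFIs were found in brain nuclei of all 7 libraries for 40 of the 44 genes. The exceptions were Nr2e3, Nr1i3, Nr0b1 and Nr0b2, with 12, 35, 4 and 9 UFIs over all nuclei. Because UFIs were counted over whole genes, introns included, levels of different genes were compared only per kilobase of gene span (GENCODE M21, GRCm38), on the scale of CPM per kb over brain nuclei. On that scale Rora (3.42) and the thyroid hormone receptor gene Thra (3.35) led, followed by the REV-ERB gene Nr1d1 (1.80), Nr2c2 (1.70), Thrb (1.62), Nr1d2 (1.53), the mineralocorticoid receptor gene Nr3c2 (1.49) and Esrra (1.43).

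Promoter sequence (RefSeq, GRCm38.p6, 250 bases before to 50 after a start) was at hand for 40 members, with 61 promoters. Both strands were searched for the half-site AGGTCA, which was in 16.3% of all 32851 promoters and in 19.7% of the members' promoters, those of 11 members. A spaced repeat, GTTCA, any 6 bases and GTTCA again, was in 0.0761% of all promoters and, among the members, in that of Rarb alone. Only these letters at this spacing were searched, so repeats with other letters or spacings in the members were not looked for. The pattern has the letters and spacing of the Rarb stretch below. Its place in Rarb alone is therefore not read as a result about Rarb. The repeated unit GTTCA is close in letters to the end of AGGTCA but not identical, so the search for AGGTCA did not find it. Of the members called for the primer below, Rxrg, Thrb, Pparg and Nr6a1 had the half-site. Rarb, Rorb, Nr2c2, Nr2f6, Nr1d1 and Ppard had none, and Nr3c1 had no promoter at hand. Stretches of 5 members named in the library comparisons are shown, with the motif in capitals, and those of Nr6a1 are not. A link between motif and library differences was not tested. The 5 stretches lie 52, 88, 184, 28 and 77 bases before a transcript start, in the order shown. They are matches of letters, with no evidence of binding in these data.
Rarb, chr14:16575506-16575535, minus strand: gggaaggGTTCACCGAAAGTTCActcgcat
Rxrg, chr1:167618165-167618194, plus strand: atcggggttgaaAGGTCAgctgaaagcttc
Thrb, chr14:17660764-17660793, plus strand: aggagagttgacAGGTCAagggaatagggc
Pparg, chr6:115361104-115361133, plus strand: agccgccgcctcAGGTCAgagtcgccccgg
Nr1d2, chr14:18239166-18239195, minus strand: gattggaagaagAGGTCAggaccgctcgtt

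The question of which kinds of nuclei carried which receptor was addressed with levels summed per kind and library. A kind was counted in a library with at least 10 of its nuclei, and levels are CPM given as mean ± SD over the n libraries that counted. Of the 40 members with at least 100 UFIs over all nuclei, 26 (65.0%) reached at least 3 times their median kind in their highest kind, against 41.5% of all genes with as many UFIs. For 10 of those 26 (Nr1h2, Nr1h3, Nr1h4, Nr1i2, Vdr, Hnf4a, Hnf4g, Nr2f6, Nr5a1 and Nr5a2) the leading kind held only 1 to 26 UFIs, so their order of kinds cannot be read at this depth. The limit of 100 UFIs counted kidney-rich nuclei too, and Nr1i2 and Nr5a1 had only 54 and 62 UFIs in brain nuclei. The other 16 had at least 50 UFIs in the leading kind. Since the 65.0% includes the 10, its distance from 41.5% is not read as a trait of the receptors. These levels describe the kinds and carry no test.

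**Figure D1:**
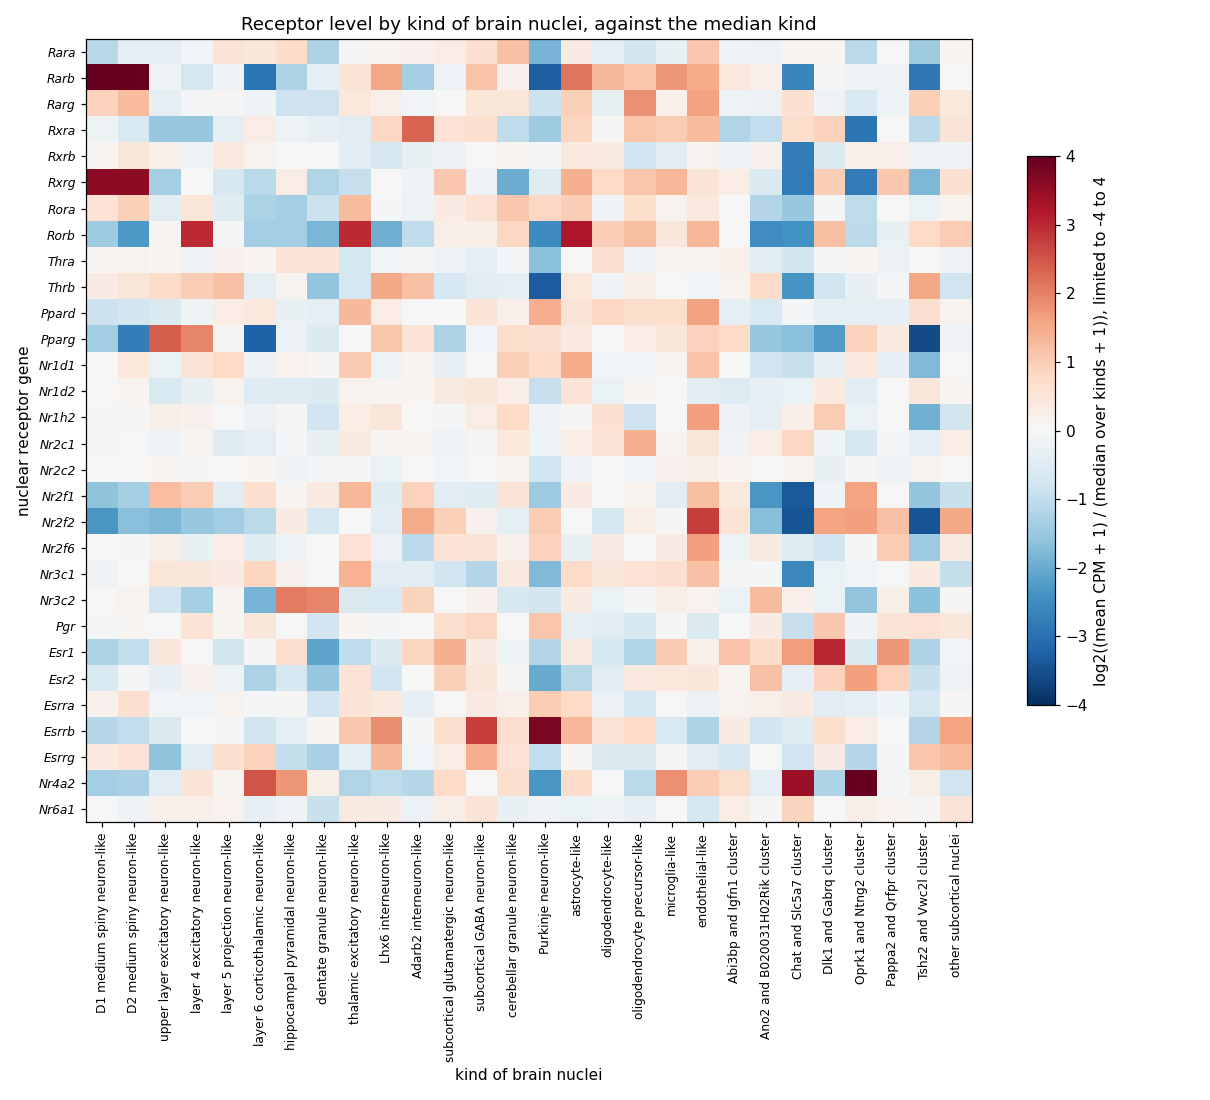
Each row is a receptor gene with at least 500 UFIs in brain nuclei and each column a kind of nuclei, with 1 of the 29 kinds not shown. Colour gives the log2 of the mean CPM + 1 over the median of the kinds + 1, limited to -4 to 4. The dark cells of Rarb and Rxrg fall in the medium spiny neuron-like kinds, that of Nr4a2 in the Oprk1 and Ntng2 cluster, and Nr2c2 is pale throughout.

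Retinoid receptors differed widely between kinds. Rarb, the retinoic acid receptor beta gene (chr14:16430839-16819156, minus strand, with exons over 1.36% of its span), stood at 629 ± 83.8 CPM in D2 and 625 ± 70.7 CPM in D1 medium spiny neuron-like nuclei (n = 7 each), the projection neurons of the striatum. These 2 kinds did not differ beyond their spread, and D2 was above D1 in 4 of 7 libraries. Astrocyte-like nuclei followed at 147 ± 30.7 CPM, the median kind was at 32.3 and Purkinje neuron-like nuclei were lowest at 2.36. Rxrg, its possible partner retinoid X receptor gamma, was highest in the same kinds, with 82.0 ± 10.8 CPM in D1 and 80.8 ± 16.2 CPM in D2 nuclei against a median kind of 5.88. Of the 2561 UFIs of Rxrg in brain nuclei, 37.5% lay in D1 nuclei.

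The other retinoid receptor genes peaked elsewhere. Rxra led in Adarb2 interneuron-like nuclei (76.2 ± 30.9 CPM, n = 7), above endothelial-like nuclei (35.9 ± 28.5 CPM) in 4 of the 6 libraries with both. Rarg, at 36.3 ± 11.1 CPM in oligodendrocyte precursor-like nuclei (n = 4), did not differ beyond the spread from endothelial-like nuclei (30.4 ± 18.2). Rara and Rxrb stayed below 3 times their median kind.

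Among the ROR receptors, orphan or sterol-bound activators, Rora was high in every kind. It ran from 780 CPM in the Chat and Slc5a7 cluster to 5295 ± 733 CPM in thalamic excitatory neuron-like nuclei, the latter within the spread of cerebellar granule neuron-like nuclei (4705 ± 549, n = 4). Rorb was more selective, with 628 ± 189 CPM in astrocyte-like, 524 ± 84.2 in thalamic and 520 ± 129 in layer 4 excitatory neuron-like nuclei (n = 7 each). These 3 kinds overlapped one another, and endothelial-like nuclei came next at 165 ± 246 CPM (n = 6), a spread that reaches them, with a median kind of 65.1. The REV-ERB genes, whose products repress clock genes, stayed below 3 times their median kind. Nr1d1 ran from 2.63 CPM in the Tshz2 and Vwc2l cluster to 33.7 ± 14.1 CPM in astrocyte-like nuclei, 2.98 times its median kind and within the spread of endothelial-like nuclei (26.2 ± 12.98), which it exceeded in 3 of 6 libraries. Nr1d2 had 85.8 ± 11.9 CPM in astrocyte-like nuclei, within the spread of subcortical GABA neuron-like nuclei (80.0 ± 7.38), which it exceeded in 3 of 5 libraries.

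Of the thyroid hormone receptor genes, Thra ran from 28.7 CPM in Purkinje neuron-like to 142 ± 27.5 CPM in oligodendrocyte-like nuclei. The latter were within the spread of dentate granule neuron-like nuclei (137 ± 19.4), which they exceeded in 4 of 7 libraries. Thrb (chr14:17660261-18038090, plus strand) reached 1378 ± 372 CPM in the Tshz2 and Vwc2l cluster (n = 4) and 1353 ± 142 CPM in Lhx6 interneuron-like nuclei, which overlapped, and was just short of 3 times its median kind of 471 CPM. Purkinje neuron-like nuclei had 45.7 CPM of Thrb. An antisense gene, Gm48321, covers 24.0% of the Thrb span. The paper describes UFI counting as strand-specific but gives no strand setting for the assignment of reads to genes. Whether reads of Gm48321 entered the Thrb counts was not tested.

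All 3 PPAR genes, fatty acid-bound receptors, passed 3 times the median kind, each in a different kind. Ppara was astrocyte-like, at 36.0 ± 14.3 CPM against a median kind of 1.25, and 139 of its 379 UFIs in brain nuclei (36.7%) lay there. Pparg (chr6:115360951-115490399, plus strand) led in upper layer excitatory neuron-like nuclei at 170 ± 36.2 CPM, above layer 4 (121 ± 18.9) in 6 of 7 libraries. Lhx6 interneuron-like nuclei had 67.3 CPM of Pparg, and the Tshz2 and Vwc2l cluster 1.65. Ppard stood at 130 ± 62.8 CPM in endothelial-like (n = 6), 118 ± 3.11 in Purkinje neuron-like (n = 2) and 106 CPM in thalamic nuclei, within one another's spread.

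Steroid receptors differed between kinds of neurons. Nr3c2, which binds aldosterone and, with high affinity, corticosterone, was at 1925 ± 164 CPM in hippocampal pyramidal and 1792 ± 231 CPM in dentate granule neuron-like nuclei (n = 7), within their spread. Next came the Ano2 and B020031H02Rik cluster at 1129 CPM, and the lowest kind was layer 6 corticothalamic neuron-like at 127. The glucocorticoid receptor gene Nr3c1 had 290 ± 24.5 CPM in thalamic and 252 ± 72.4 CPM in endothelial-like nuclei, with a median kind of 111. Esr1, estrogen receptor alpha, had 96.6 ± 46.9 CPM in the Dlk1 and Gabrq cluster (n = 7), against 1.82 in dentate granule neuron-like nuclei. Pgr, the progesterone receptor gene, had 67.7 ± 2.41 CPM in Purkinje neuron-like nuclei (n = 2) over a median kind of 30.6. The Dlk1 and Gabrq cluster overlapped them at 66.2 ± 18.1 CPM (n = 7), and was lower in 1 of the 2 libraries with both.

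Orphan receptors included the highest ratio of leading to median kind among the 16 members with at least 50 UFIs in the leading kind, 60.1 for Nr4a2. This gene, known as Nurr1 and required for midbrain dopamine neurons, stood at 243 ± 60.6 CPM in the Oprk1 and Ntng2 cluster (n = 4), which held 451 of its 1519 UFIs (29.7%). The Chat and Slc5a7 cluster followed at 54.2 ± 17.5 CPM (n = 2), then layer 6 corticothalamic neuron-like nuclei at 28.0, with a median kind of 4.04. Nr2e1, or Tlx, a transcriptional repressor active in neural stem cells, was found in astrocyte-like (18.6 ± 10.6 CPM) and Adarb2 interneuron-like nuclei (15.5 ± 5.39). Its median kind had 0.321 CPM. The COUP-TF genes differed. Nr2f2 led in endothelial-like nuclei (73.3 ± 41.6 CPM, n = 6) and Nr2f1 in the Oprk1 and Ntng2 cluster (29.5 ± 6.67, n = 4), where it overlapped thalamic nuclei (24.6). Of the estrogen-related receptors, Esrrb peaked in Purkinje neuron-like nuclei (62.2 ± 12.1 CPM, n = 2) above subcortical GABA neuron-like nuclei (30.7 ± 9.98, n = 5). Esrrg ran from 106 CPM in upper layer to 893 ± 124 CPM in subcortical GABA neuron-like nuclei. Lhx6 interneuron-like nuclei overlapped the latter at 814 ± 70.8 CPM of Esrrg (n = 7). Nr2c2, or TR4, was flat, from 81.9 to 168 CPM over all 29 kinds. Nr2c1 stayed below 3 times its median kind, at 2.76 times. It was highest in oligodendrocyte precursor-like nuclei (62.8 ± 22.8 CPM, n = 4), followed by the Chat and Slc5a7 cluster (40.9 ± 1.36, n = 2).

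The leading kind was recomputed under 13 other choices for the 24 of these 26 members with at least 100 UFIs in brain nuclei. A cluster of another clustering was named by the kind above that most of its nuclei belonged to. It can hold nuclei of other kinds, so a new name need not mean other nuclei. It was the same in all 13 for 3 members, Ppara among them. For Rarb and Rxrg the first place passed only between D1 and D2. Esrrb led in Purkinje neuron-like nuclei, a kind counted in the 2 No_index_frozen libraries alone, in 7 of the 13. Without No_index_frozen_1 or 2 that kind was no longer compared, and Esrrb led in subcortical GABA neuron-like nuclei (34.3 and 27.4 CPM). With 20 principal components the Oprk1 and Ntng2 cluster was no longer separate and Nr4a2 led in a cluster of mostly layer 4 nuclei at 38.8 CPM. In that clustering Rxra led in a cluster of mostly Lhx6 interneuron-like nuclei at 41.1 CPM. This was 2.60 times its median kind and did not pass the 3-fold limit. Ppard (3.08 times in the kinds above) and Nr2f1 (3.19 times) also fell below that limit there, at 2.99 and 2.42 times, and under some other choices. With resolution 1.2 Rorb led in a cluster of mostly layer 4 nuclei at 918 CPM. With at least 20 nuclei of a kind in a library, Nr2f2 led in Adarb2 interneuron-like nuclei at 31.9 CPM.

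Kidney-rich nuclei, whose origin in a brain library the labels do not explain, carried another set of receptors. Of the 40 members, 18 (45.0%) were at least 3-fold above the brain nuclei of the same library in both Index_frozen libraries with at least 20 UFIs, against 17.9% of the 17031 genes with as many UFIs in either set of nuclei. The nuclei were chosen by their cluster, so these values are a description with no test. Vdr, the vitamin D receptor gene, stood at 477 and 464 CPM in kidney-rich nuclei of Index_frozen_1 and 2 and at 0.496 and 1.05 CPM in the brain nuclei beside them. The brain nuclei of the 5 other libraries had 0.407 to 0.919 CPM, so Vdr was near 0 in the brain nuclei of all libraries. Kidney-rich nuclei, 481 of 11198, held 94.2% of the Vdr UFIs.

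Hnf4a, a regulator of epithelial metabolism, had 419 and 351 CPM against 0.579 and 0.747 in brain nuclei, 725-fold and 470-fold. An antisense gene, Hnf4aos, covers 52.8% of its span. Hnf4g had 409 and 418 CPM, the bile acid receptor gene Nr1h4 316 and 310, and Ppara 425 and 377, from 134-fold to 477-fold above brain nuclei. The xenobiotic receptor gene Nr1i2 had 41.9 and 39.1 CPM, 113-fold and 230-fold above brain nuclei with 0.372 and 0.170.

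All 3 estrogen-related receptor genes, regulators of mitochondrial genes, were in the set. Esrrg, already at 392 and 394 CPM in brain nuclei, reached 5504 and 5315 CPM, Esrrb 154 and 181, and Esrra 67.6 and 70.5. Nr1h3, an oxysterol receptor gene, had 18.6 and 16.1 CPM (23.6-fold and 28.0-fold) and Nr2f6 39.0 and 31.9 (13.9-fold and 11.9-fold). Differences from 3.26-fold to 11.6-fold were found for Rxra, Nr2f2, Esr1, Rara, Nr1h2 and Ppard, and Esr2 was 3-fold higher in 1 library only (3.17-fold and 2.11-fold). In the other direction, Nr2f1 had 0 and 0.850 CPM, Nr2e1 0 and 0.425, Rxrg 0.476 and 1.27, Nr4a2 0.952 and 0.850 and Pparg 15.2 and 18.3 CPM in kidney-rich nuclei, all below brain nuclei of the same libraries.

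**Figure D2:**
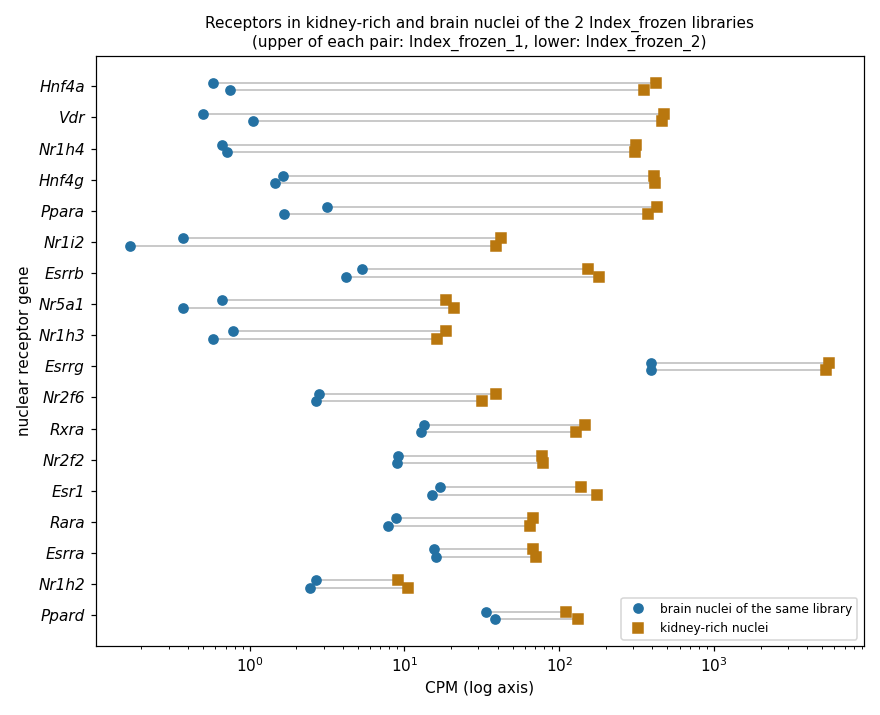
The horizontal log axis is CPM, with a pair of rows for each of the 18 receptor genes, Index_frozen_1 above Index_frozen_2. Squares are kidney-rich and circles brain nuclei of the same library, and the gap narrows from Hnf4a and Vdr at the top, about 0.5 to 1 against 351 to 477 CPM, to Ppard, 3.26-fold and 3.44-fold, at the bottom.

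Within the kidney-rich nuclei, 9 kinds were told apart, and levels below pool both libraries. Esrrb was at 371 CPM in distal tubule-like and 313 in the Slc12a3 and Abca13 cluster, and at 26.5 in proximal tubule-like nuclei. Nr3c2, the receptor through which aldosterone acts on salt transport, peaked in the Slc4a9 and Atp6v0d2 cluster (1551 CPM) and the Slc12a3 and Abca13 cluster (1079), against 210 in proximal tubule-like nuclei. Ppara was highest in proximal tubule-like nuclei (674 CPM), where Esr1 was lowest (47.0).

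Nr5a1, or SF-1, a regulator of steroid hormone synthesis, was all but confined to the Hsd3b1 and Cyp11b1 cluster, whose leading genes encode steps of steroid synthesis. It had 353 CPM there (95% exact Poisson interval 280 to 439, for counting error only), from 284 CPM in 1 library and 444 in the other, and 81 of its 88 UFIs in kidney-rich nuclei. Rora was also highest in that cluster, at 5754 CPM against 906 to 2446 in the 8 other kinds. This cluster was also the 1 with 2162 CPM of the neuron markers, whose part in these levels was not tested. Fibroblast-like nuclei led for Nr2f2 (203 CPM) and Rarb (253 CPM).

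Vdr (279 to 606 CPM) and Hnf4a (153 to 552 CPM) were found in all 9 kinds. These levels stand beside those of the kidney marker genes themselves, which were also found throughout. The 8 proximal tubule markers summed to 13579 CPM in proximal tubule-like nuclei, to 3404 to 8955 CPM in the other kinds and to 8.18 CPM in the brain nuclei of these libraries. The part that RNA from other kidney-rich nuclei has in the levels of each kind was not tested, and an even level is not read as expression in every kind.

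**Figure D3:**
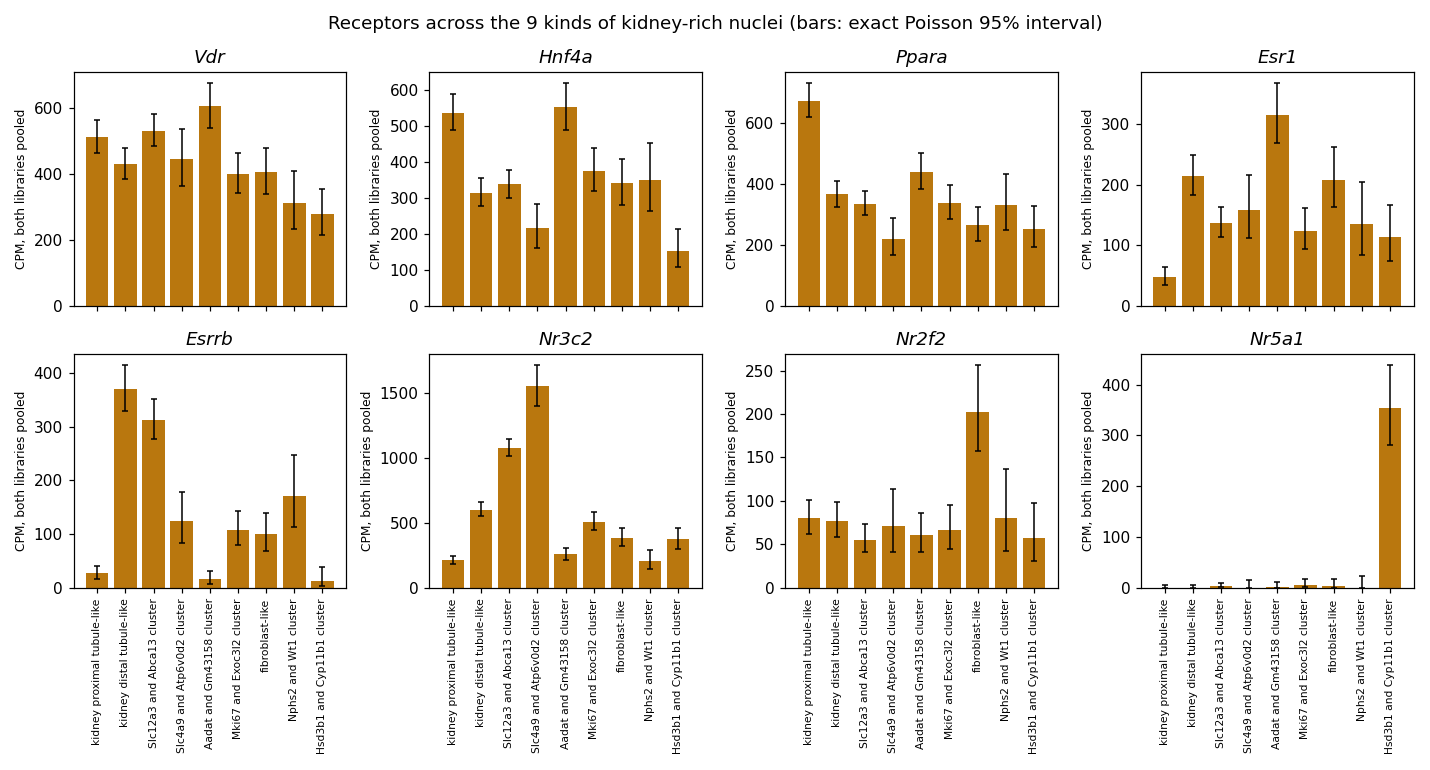
Bars give CPM pooled over both Index_frozen libraries in each of the 9 kinds of kidney-rich nuclei, with exact Poisson 95% intervals for counting error only, for 8 receptor genes on linear axes from 0. Nr5a1 stands out in 1 kind (353 CPM) and Esrrb in 2 (371 and 313 CPM), while Vdr lies between 279 and 606 CPM in all 9.

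The effects of storage and primer were tested with edgeR on UFIs summed over the brain nuclei of each library, in a fit over 18690 genes that held 40 members. In such sums, fewer nuclei of a type and less RNA per nucleus cannot be told apart. The libraries also differed in their shares of kinds, given below. Primer and storage therefore cannot be told apart from the tissue that each library held. For storage 1 member was called (2.50%), against 0.251% of all genes tested, while 6 members had an unadjusted p under 0.05. That member was Rarb, with 93.9 and 107 CPM in No_index_frozen, 139 and 132 in Index_frozen, 76.1 and 73.7 in No_index_fresh and 100 CPM in Index_fresh. Within each primer, frozen libraries lay above fresh ones. The log2 difference of frozen against fresh was 0.46 ± 0.05 (SE, adjusted p = 0.011, edgeR), and it did not pass without No_index_frozen_2 (0.42, adjusted p = 0.062) or without No_index_fresh_2 (0.44, adjusted p = 0.061).

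More members were called for the primer, 11 of 40 (27.5%) against 19.6% of all genes tested, with 8 higher (10.5% of all genes were) and 3 lower (9.07%) in Index libraries. The 8 that rose were Rxrg (log2 difference 0.60 ± 0.08, adjusted p = 0.0012), Rarb (0.57 ± 0.05, 0.00015), Pparg (0.56 ± 0.06, 0.00043), Thrb (0.55 ± 0.05, 0.00012), Rorb (0.35 ± 0.09, 0.028), Nr6a1 (0.34 ± 0.06, 0.0046), Nr3c1 (0.31 ± 0.04, 0.00092) and Nr2c2 (0.17 ± 0.04, 0.018). Thrb had 673, 722 and 734 CPM in the 3 Index libraries and 514 to 569 in the 4 others, so the groups did not overlap. The same held for Pparg, at 57.6 to 61.0 CPM with Index and 42.2 to 46.9 without it. Rxrg ran from 15.1 to 19.8 CPM with Index and from 11.4 to 14.4 without it. The 3 that fell were Nr2f6 (-0.52 ± 0.15, 0.037), Nr1d1 (-0.50 ± 0.11, 0.011) and Ppard (-0.28 ± 0.06, 0.012), and Rxrb was just outside at -0.32 with an adjusted p of 0.051. Over all 40 members the median primer difference was -0.02, beside -0.04 over all genes. Nr1d1 had 8.76 to 11.8 CPM with Index and 15.3 to 16.8 without it. An opposite-strand gene, Ocel1, covers 66.8% of Nr2f6, and Thra covers 14.5% of Nr1d1. Antisense genes cover 14.2% of Nr6a1 (Nr6a1os) and 10.2% of Pparg (Gm44079).

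Some of these calls rested on single libraries. Rorb did not pass without either Index_frozen library, either No_index_frozen library or No_index_fresh_1 (0.27 to 0.35, adjusted p = 0.055 to 0.116), nor Nr2c2 without either Index_frozen library or No_index_frozen_2 (0.15 to 0.18, 0.058 to 0.083). Nr2f6 did not pass when any library other than No_index_frozen_1 and No_index_fresh_2 was left out (-0.54 to -0.44, adjusted p = 0.074 to 0.114), and it stood at 0.0079 (adjusted p = 0.99) with all nuclei summed. Nr1d1 stood at -0.22 (adjusted p = 0.16) without both Index_frozen libraries, a choice made after seeing the data.

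**Figure D4:**
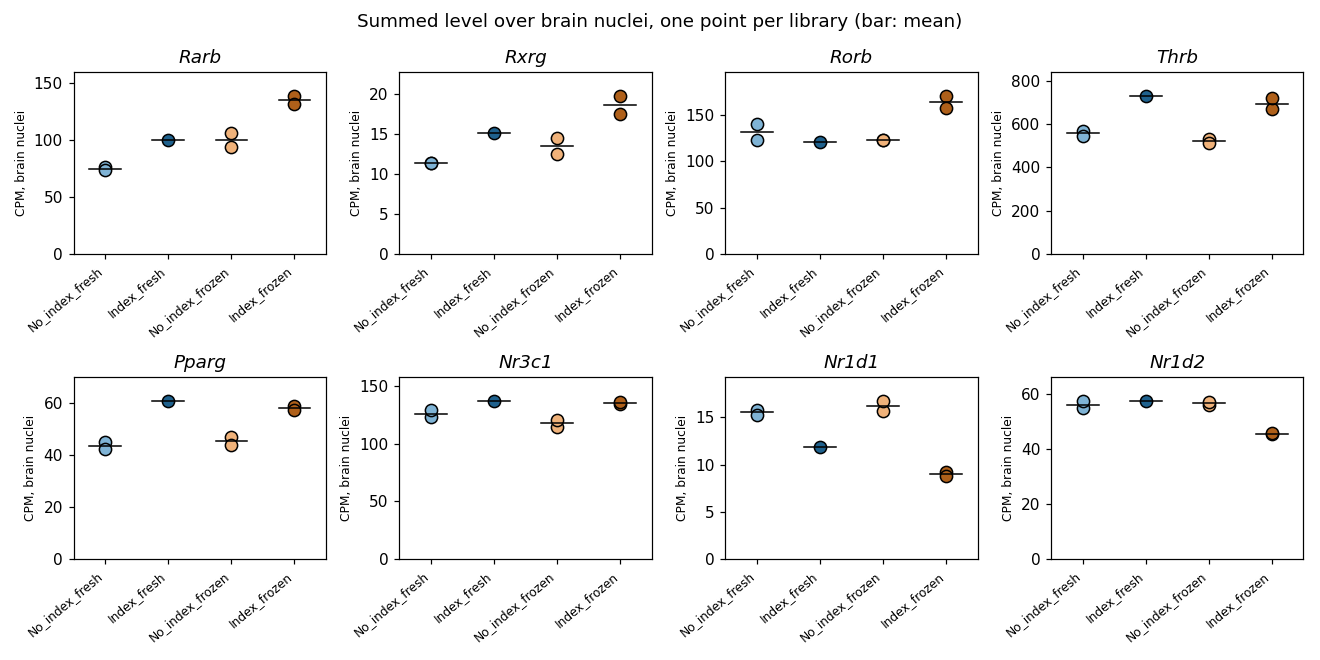
Points give the CPM of 8 receptor genes over the brain nuclei of each library, grouped by primer and storage, with a bar at the group mean and axes from 0. Thrb and Pparg are higher in the 3 Index libraries, Rarb is highest in the 2 Index_frozen libraries (132 and 139 CPM), and Nr1d2 stands lower in Index_frozen alone.

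The count by direction rested on the scaling. TMM factors (edgeR's trimmed-mean scaling between libraries) were 0.941 to 0.945 in Index and 1.01 to 1.08 in No_index libraries. With library totals alone, a choice made after seeing the data, the median log2 primer difference of all genes moved from -0.04 to -0.19, the share of called genes that were higher from 53.7% to 15.0%, and the members called from 8 higher and 3 lower to 6 higher and 12 lower. Rarb (0.43), Rxrg (0.45), Pparg (0.41), Thrb (0.41), Nr6a1 (0.19) and Nr3c1 (0.17) stayed higher on both scalings. Rorb (0.20, adjusted p = 0.17) and Nr2c2 (0.03, adjusted p = 0.68) did not pass on library totals.

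The shares of kinds also differed between the libraries. Medium spiny neuron-like nuclei made up 14.9%, 16.1% and 13.1% of brain nuclei in the Index libraries, 10.4% and 12.5% in No_index_frozen and 8.10% and 8.08% in No_index_fresh. With these nuclei left out, a choice made after seeing the data, the primer difference of Rarb was 0.07 (adjusted p = 0.62), its storage difference 0.30 (adjusted p = 0.26) and the primer difference of Rxrg 0.22 (adjusted p = 0.33). Within medium spiny neuron-like nuclei alone, Rarb differed with primer by 0.28 (adjusted p = 0.049) and with storage by 0.12 (adjusted p = 0.83), and Rxrg with primer by 0.29 (adjusted p = 0.19). Both genes were highest in these nuclei, so leaving them out removes the kinds with their highest levels. The part of the shares of kinds in these differences was not tested. Cerebellar granule-like and Purkinje-like nuclei together made up 12.7% and 13.25% of brain nuclei in No_index_frozen, 4.00% and 4.23% in No_index_fresh and at most 0.0974% in each Index library. Without them Rarb stood at 0.47 for the primer (adjusted p = 0.00079) and 0.53 for storage (adjusted p = 0.011), and 12 members were called for the primer. Thrb and Pparg kept their primer calls in every alternative over brain nuclei that was run.

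The span of the genes also differed with direction. The 8 members higher with Index had a median span of 155 kb (41.2 to 388) and the 3 lower 7.84 kb (7.40 to 68.8), beside 97.9 kb and 16.7 kb for all genes called higher and lower and 25.4 kb for all genes tested. The part of gene length in these differences was not tested.

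**Figure D5:**
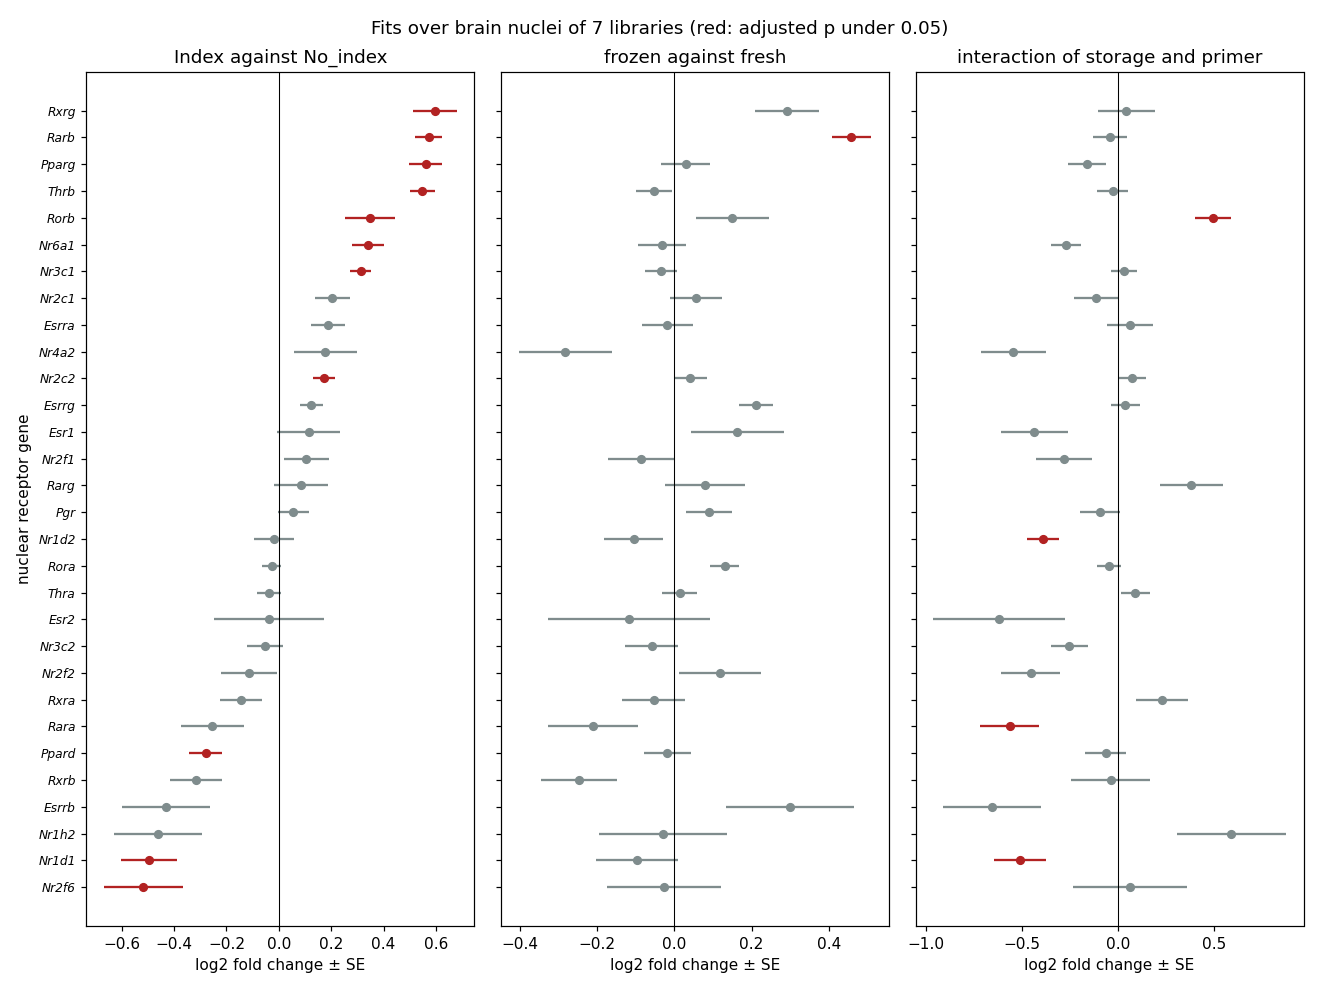
Points are log2 fold changes ± SE from edgeR over the brain nuclei of 7 libraries for the 30 receptor genes with at least 500 UFIs there, in panels for primer, storage and their interaction, with red for an adjusted p under 0.05. Thrb, Pparg, Rarb and Rxrg stand near 0.55 to 0.60 for the primer, and Rarb alone is red for storage.

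Within single kinds, 13 kinds had at least 20 nuclei in every library and were each fitted over all genes. Thrb rose with Index in layer 4 (0.60 ± 0.09, adjusted p = 0.0014), layer 6 corticothalamic (0.62 ± 0.12, 0.023) and upper layer excitatory neuron-like nuclei (0.45 ± 0.11, 0.023), where 3.14%, 0.658% and 3.8% of all genes were called for the primer. In layer 4 its levels were 951, 1085 and 1251 CPM with Index and 749 to 820 CPM without it. Its difference was positive in 11 of the 13 kinds.

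Pparg rose in upper layer (0.65 ± 0.12, 0.0030) and layer 4 nuclei (0.41 ± 0.10, 0.038). In upper layer nuclei its level was 200 to 214 CPM with Index and 124 to 163 without it. Rarb rose in D2 nuclei (0.43 ± 0.11, 0.031), from 515 to 650 CPM without Index to 662 to 743 with it, where 3.46% of all genes were called. In D1 nuclei the Rarb levels with Index (603 to 701 CPM) lay inside those without it (494 to 705). Rora fell in dentate granule neuron-like nuclei (-0.45 ± 0.11, 0.020), where 3.41% of genes were called. Differences of Nr6a1 and Nr2c2 (0.05 to 0.19 for Nr2c2) were positive in all 13 kinds without passing in any, and that of Nr1d1 was negative in 11. The kinds come from the same libraries, so these signs, and those of Thrb, are not separate repeats.

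For storage 1 member was called within a kind, Rorb in layer 4 nuclei (0.61 ± 0.11, adjusted p = 0.047), where 0.217% of genes were called. Its levels there were 462 and 640 CPM in No_index_frozen, 687 and 637 in Index_frozen, 424 and 421 in No_index_fresh and 371 in Index_fresh. The 4 frozen libraries lay above the 3 fresh ones. Without either Index_frozen library, the calls of members within kinds dropped from 8 to 2, and without No_index_fresh_1 to 3.

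Whether the primer difference varied with storage was tested as an interaction, which was called for 4 of 40 members (10.0%), against 7.9% of all genes. Rorb had a log2 interaction of 0.50 ± 0.09 (adjusted p = 0.0053), with 171 and 158 CPM in Index_frozen against 122 to 140 CPM in the other 5 libraries. Without both Index_frozen libraries its primer difference was 0.05 (adjusted p = 0.66). Nr1d2 had -0.39 ± 0.08 (0.010), with 45.6 and 45.8 CPM in Index_frozen and 54.9 to 57.6 elsewhere. With DESeq2 it did not pass (-0.41, adjusted p = 0.070). The interactions of Rara (-0.57 ± 0.15, 0.038) and Nr1d1 (-0.51 ± 0.14, 0.037) did not pass on library totals (adjusted p = 0.063 and 0.065), nor without No_index_frozen_2, No_index_fresh_2 or Index_frozen_2. Rara also did not pass without No_index_frozen_1 or No_index_fresh_1 or without the cerebellar nuclei (-0.51, adjusted p = 0.080), and Nr1d1 without Index_frozen_1. Index_fresh was a single library, on which these differences rest in part. Within kinds, Rora in the Abi3bp and Igfn1 cluster had an interaction of 0.78 ± 0.16 (adjusted p = 0.023, with 0.592% of genes called). In upper layer nuclei that of Rara, on 5 to 36 UFIs a library, was -2.73 ± 0.70 (0.036, 1.17%).

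With kidney-rich and liver-rich nuclei included in the sums, 16 members were called for the primer, beside 15.8% of all genes in either direction. Of these 16 members, 15 were higher. The interaction called 14 members, beside 16.4% of all genes. Ppara, Nr1h4, Nr1i2 and Hnf4a then stood at 2.79, 4.03, 2.33 and 3.70 on the log2 scale for the primer, though none of the 4 passed in brain nuclei alone. Storage called 1 member in all nuclei (0.207%). In neuron-like nuclei alone, 1 member was called for storage (0.445% of all genes), 11 for the primer (21.1%) and 4 for the interaction (6.96%).

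Genes that work with the receptors were taken from 9 lists of coregulators, ligand supply and targets, of which 18 of 67 tested genes (26.9%) were called for the primer, beside 19.6% of all genes. The list of clock partners of ROR and REV-ERB had 3 of 9 tested genes higher and 1 lower with Index, namely Npas2 (0.46), Bhlhe41 (0.39), Clock (0.19) and Cry1 (-0.22). Coactivators had 3 of 9 higher, Ncoa2 (0.20), Ncoa3 (0.16) and Ppargc1b (0.14), and corepressors 1 of 7, Lcor (0.30). Among the chaperones and targets of the glucocorticoid receptor, 2 of 10 were higher and 3 lower, with the chaperone genes Hsp90aa1 (-0.66), Fkbp4 (-0.51) and Hsp90ab1 (-0.40) falling and the target Sgk1 (0.26) rising. LXR and PPAR targets, with a median of -0.35, had 3 of 8 lower, the lipid carrier and transport genes Apoe (-1.11) and Abca1 (-0.34), and Srebf1 (-0.37).

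Of the 4 thyroid hormone targets tested, Hr fell (-0.58). No gene of retinoid supply (9 tested) or of steroid and oxysterol metabolism (6 tested) passed for the primer. At an unadjusted p under 0.05, 4 and 0 genes of these lists did. Storage called 1 of the 67 genes (1.49%, beside 0.251% of all genes), Zbtb16 (-0.36 ± 0.05, adjusted p = 0.034). The interaction called 7 of 67 (10.4%, beside 7.9% of all genes), namely Tsc22d3 (1.02), Hsp90aa1 (-0.99), Slco1c1 (0.90), Per1 (-0.81), Abca1 (0.38), Ppargc1a (-0.34) and Npas2 (0.26). Astrocyte-like nuclei, in which Apoe is usually high, made up 3.00%, 1.79% and 0.974% of brain nuclei in Index_frozen_1, Index_frozen_2 and Index_fresh. In the No_index libraries they made up 2.00% to 2.62%. Their part in these differences was not tested.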

How the data were processed

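The authors trimmed reads with Cutadapt, chose barcodes and counted UFIs with UMI-tools, aligned with STAR, kept unique reads and assigned them to whole genes with featureCounts, and deposited whole-number UFI counts per gene and nucleus. Their notes list GRCh38, GRCm38 and mm10, with no tool versions, and the text names GRCh38 for this step, so genes were used by symbol. Here all deposited barcodes were kept, scaled to 10000 and clustered in scanpy 1.11.5 without the members (2000 variable genes, 40 components, 10 neighbours, Leiden resolution 0.4). UFIs were summed per library and kind. Sums were filtered with filterByExpr, scaled by TMM and fitted with edgeR 4.0.16 (quasi-likelihood, storage and primer, Benjamini-Hochberg over all genes, threshold 0.05, R 4.3.3). The SE is the log2 fold change over the square root of F. DESeq2 1.42.0 was an alternative. Members, lists and rules were chosen with earlier results of these data known. All 44 members are accounted for. Those named with values have at least 100 UFIs and a leading kind at least 3-fold over the median kind, pass a test, or are 3-fold higher in kidney-rich nuclei, and pathway genes are those that passed, at most 4 per list. Further members are named to give the order of levels. In simulated data for the primer, 72.7% of 2-fold and 95.9% of 4-fold changes were recovered over 17967 genes (storage 71.6% and 94.7% over 18019, interaction 40.6% and 72.2% over 18000), and 5.17%, 9.20% and 7.63% of the calls for primer, storage and interaction were false. The differences called for members over brain nuclei were all smaller than 2-fold. Changes of that size were not simulated, so their recovery is not known. Deviations of libraries sharing a replicate number correlated at -0.035, -0.017 and 0.025. These values show no pairing by number, but with so few libraries they cannot exclude shared animals or batches. The 5 species-mix samples were not used. Results for 1 kind of nuclei and 1 pathway gene that meet these rules are not reported here.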

Additional observations from a re-analysis of the deposited data

Results flagged for a closer look

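Over the brain nuclei, the highest or lowest library was tested for its gap to the others in 76 groups of 4 libraries, of which 5 stood out, where chance gives about 1 in 20. Rarg was at 12.37 CPM in No_index_fresh_2, against 10.45 to 10.46 in the 3 other No_index libraries. In the same library Rorb was at 140.2 CPM, against 122.7 to 123.4. Ppard was lowest in No_index_frozen_2 at 48.13 CPM, against 50.2 to 50.6 in the other No_index libraries. Esr2 was at 4.956 CPM in the same library, against 2.44 to 2.85 in the other frozen libraries. Nr6a1 was lowest of the frozen libraries in No_index_frozen_1, at 121.7 CPM against 137 to 139.

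The primer difference varied with storage, by the interaction term in edgeR, for 4 receptor genes. The log2 interactions were 0.4953 for Rorb (adjusted p = 0.0053), -0.3918 for Nr1d2 (0.010), -0.5115 for Nr1d1 (0.037) and -0.5659 for Rara (0.038), with 1 Index_fresh library in each.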

How the results depend on the processing

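The number of members called was 1 for storage, 11 for the primer, 4 for the interaction and 8 within kinds. For storage it was 2 with DESeq2 and 2 with no filter on low counts, 0 with storage alone in the model, 0 without medium spiny neuron-like nuclei, and 0 to 3 when 1 library was left out (3 without Index_fresh_1). For the primer it was 18 with library totals and 8 to 16 with 1 library left out. For the interaction it was 1 with DESeq2, 8 with no filter, 14 with all nuclei, 2 with library totals, 2 without medium spiny neuron-like nuclei and 2 to 5 with 1 library left out (2 without No_index_frozen_2 or No_index_fresh_2). Within kinds it was 24 with no filter, 5 with 1 factor alone and 2 to 7 with 1 library left out. The pathway genes called for storage (1) were 2 with DESeq2, 2 with library totals, 9 with no filter, 4 without both Index_frozen libraries, 0 with 1 factor alone, 0 without granule-like and Purkinje-like, medium spiny neuron-like or the deepest nuclei, and 0 to 5 with 1 library left out. Those called for the primer (18) were 10 to 15 with 1 library left out, with 11 and 10 without Index_frozen_1 and 2. Those called for the interaction (7) were 16 with all nuclei, 2 with DESeq2, 3 without the deepest nuclei and 3 to 8 with 1 library left out. Of 24 members, the leading kind stayed first for 13 with 20 components, 14 with at least 20 nuclei and 19 to 24 with 1 library left out. The raised members in kidney-rich nuclei were 17 with nuclei taken by marker UFIs and 18 to 19 with 1 library. The cause of these changes was not tested.

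With the replicate number as a block, members called were 1 for storage, 10 for the primer, 3 for the interaction and 6 within kinds, and pathway genes 0, 13 and 4. The numbers share no known animal or batch.

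With all nuclei summed, direction reversed for the primer in Ppara (2.79), Nr1h4 (4.03), Nr1i2 (2.33), Hnf4a (3.70) and Nr2f6 (0.0079), and for the interaction in Rara (0.0003), Hnf4g (3.90), Esrrb (1.16) and Nr5a2 (-1.96), on the log2 scale. Of the other values for single genes, 547 kept their side of the threshold, 54 no longer passed and 24 newly passed. Some of the 547 changed sign where neither value passed. Rorb, Nr2c2 and Nr2f6 lost the primer call in 9, 6 and 9 alternatives. Libraries of 8605214 UFIs limit members under 100 UFIs.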

Other observations

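The 20 liver-rich nuclei of Index_fresh also held receptor UFIs. They had 206 UFIs for Thrb, 151 for Nr1h4, 136 for Rxra, 117 for Esrrg, 116 for Rora and 108 for Ppara, 94 for Esr1 and 74 each for Nr5a2 and Nr3c2. Nr1i3, the constitutive androstane receptor gene of the liver, had 15 of its 35 UFIs over all nuclei there. Hnf4a had 28 and Nr1i2 24 UFIs, and Vdr, high in the kidney-rich nuclei, had 0. In CPM, Rora stood at 1102 and Nr3c2 at 703 in these nuclei, against 2254 and 519 in the brain nuclei of Index_fresh. The part of brain RNA in these counts was not tested. An opposite-strand gene, Tomm40l, covers 69.7% of the span of Nr1i3. With 1 library these counts and levels carry no test.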
